A study of Mus musculus with 96 samples.

Results

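Suz12 occupancy in the non-neuronal nuclei of the hippocampus was compared between each of 3 DNA glycosylase knockouts and wild type (WT) mice. The table of Suz12 in NeuN- nuclei held 312 consensus peaks, and 308 of them were described after 4 peaks on chromosome 2, between 98662501 and 98667360 of GRCm38, had been set aside. These 308 were among 22815 peaks in the 6 tables of the series (3 antibodies in 2 nuclear fractions). The mice were 6 months old males on a C57BL/6N background: a WT group, Mutyh-/-, Ogg1-/- and their double knockout (DKO, bred from the 2 single knockouts). Each of the 3 libraries per genotype came from hippocampi pooled over several animals. Nuclei had been sorted by flow cytometry on NeuN, a protein of neuronal nuclei, and the NeuN- fraction was called non-neuronal by this gate.

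Suz12 is a core subunit of Polycomb repressive complex 2 (PRC2), which methylates lysine 27 of histone H3 and keeps developmental genes silent. In mammals PRC2 is recruited to CpG islands, stretches of DNA rich in unmethylated CpG, at the promoters of genes for transcription factors and signalling proteins. Ogg1 removes 8-oxoguanine from DNA and Mutyh removes the adenine that is mispaired with it, the first steps of base excision repair.

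The sequences below show what the peaks were made of. They are the middle of the 3 promoter and the 3 off-promoter regions with the smallest p in any knockout (Kctd16 left out), read from the plus strand of GRCm38, 5′ to 3′, with each CpG in capitals. The off-promoter regions come first.
Gm20822, chrY:11857977-11858276: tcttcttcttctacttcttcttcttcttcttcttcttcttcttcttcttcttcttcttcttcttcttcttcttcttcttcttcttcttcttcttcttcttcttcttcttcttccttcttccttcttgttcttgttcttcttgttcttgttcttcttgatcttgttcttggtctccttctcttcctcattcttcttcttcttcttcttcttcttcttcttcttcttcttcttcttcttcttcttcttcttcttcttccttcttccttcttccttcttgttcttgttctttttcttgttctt
Ccl28, chr13:119616383-119616682: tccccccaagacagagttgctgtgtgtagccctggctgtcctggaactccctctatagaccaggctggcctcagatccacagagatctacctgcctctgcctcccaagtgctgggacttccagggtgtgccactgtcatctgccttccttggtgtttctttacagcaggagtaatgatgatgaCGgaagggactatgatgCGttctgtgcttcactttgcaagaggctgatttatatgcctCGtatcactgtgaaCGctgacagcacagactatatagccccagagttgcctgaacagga
Tmem125, chr4:118548079-118548378: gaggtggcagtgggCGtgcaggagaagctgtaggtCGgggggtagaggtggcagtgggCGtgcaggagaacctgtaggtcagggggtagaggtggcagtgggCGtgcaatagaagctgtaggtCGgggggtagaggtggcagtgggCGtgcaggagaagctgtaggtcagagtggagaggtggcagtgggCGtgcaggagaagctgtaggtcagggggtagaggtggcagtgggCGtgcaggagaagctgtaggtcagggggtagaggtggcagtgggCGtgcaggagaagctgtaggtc
The promoter regions follow.
Zfp982, chr4:147508969-147509268: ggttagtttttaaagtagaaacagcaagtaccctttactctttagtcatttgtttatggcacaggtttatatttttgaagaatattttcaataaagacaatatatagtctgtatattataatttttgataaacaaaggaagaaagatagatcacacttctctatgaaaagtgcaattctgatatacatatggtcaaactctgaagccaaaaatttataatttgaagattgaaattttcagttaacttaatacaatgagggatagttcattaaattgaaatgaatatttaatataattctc
Mecom, chr3:30508753-30509052: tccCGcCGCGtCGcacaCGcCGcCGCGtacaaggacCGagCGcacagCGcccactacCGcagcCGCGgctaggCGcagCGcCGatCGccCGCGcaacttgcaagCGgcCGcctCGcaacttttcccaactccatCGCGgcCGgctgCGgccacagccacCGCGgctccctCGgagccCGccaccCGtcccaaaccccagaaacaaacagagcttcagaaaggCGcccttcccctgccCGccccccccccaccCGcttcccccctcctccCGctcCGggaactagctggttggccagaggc
Kmt2a, chr9:44881314-44881613: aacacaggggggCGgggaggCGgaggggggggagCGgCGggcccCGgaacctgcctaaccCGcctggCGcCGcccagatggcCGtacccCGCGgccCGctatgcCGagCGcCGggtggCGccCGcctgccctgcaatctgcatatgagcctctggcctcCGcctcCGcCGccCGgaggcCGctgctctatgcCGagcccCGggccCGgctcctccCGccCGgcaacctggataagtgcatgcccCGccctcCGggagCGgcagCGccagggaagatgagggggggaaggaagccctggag
The 300 bases at Mecom held 37 CpGs and those at Kmt2a 31. The off-promoter regions near Tmem125, Ccl28 and Gm20822 held 9, 4 and 0, and the Zfp982 promoter region, with a GC content of 25.3%, held 0. The Gm20822 region was a run of tct triplets and the Tmem125 region a short unit repeated in tandem.

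Most peaks lay off promoters and in repeated DNA. By the annotation deposited with the peaks, 56 of 308 (18.2%) were within 2 kb of a transcription start site and were called promoter peaks, and 252 (81.8%) were not. The off-promoter peaks were 139 distal intergenic, 73 intronic, 29 exonic and 11 in untranslated regions. A peak was called copied or repeat when its sequence had another copy in GRCm38 (at least 90% identity over 80% of its length) or at least 50% of its bases were soft-masked: 161 of the 252 off-promoter peaks and 17 of the 56 promoter peaks were of this kind. Only 36 of the 308 peaks met CpG island criteria (GC over 50% and an observed to expected CpG ratio over 0.6), of which 24 were promoter peaks. Of the 308 peaks, 181 lay in 16 clusters of 4 or more peaks, each under 50000 bp from the next. The largest cluster had 30 peaks over 95328 bp of chromosome 1, from Ugt1a1 through Mroh2a and Hjurp to Trpm8. Another had 29 peaks in 38181 bp at the start of chromosome 9, assigned to Mir101c, with a median of 96.5% masked bases.

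The libraries were shallow over these peaks. Values were recovered as whole reads, and a library held 4066 to 16763 reads outside the chromosome 2 interval, with a median of 2 to 11 reads per peak and 11.7 to 34.7% of peaks at 0. The 4 peaks set aside took 59.3 to 81.4% of all reads. No Suz12 NeuN- peak was annotated to Ogg1 or Mutyh, so the genotype labels could not be checked in this table. The sort was checked against markers in the H3K4me3 tables: promoter peaks were found at 12 of 15 neuron markers in NeuN+ nuclei. Markers of oligodendrocytes (1 of 12, Olig1), astrocytes (1 of 9, Slc1a2), microglia (0 of 8) and vessels (0 of 7) were almost absent among H3K4me3 NeuN- promoter peaks, so these markers did not show which cell types the NeuN- fraction held and its label rests on the gate. Libraries stood apart in 2 ways. The mean GC content of the peak sequences, weighted by the reads in each peak, was highest in WT replicate 1 (52.2%) and Mutyh-/- replicate 3 (51.8%). It was 33.9 to 47.1% in the other 10 libraries. DKO replicate 2 had 33.9% of its reads in 6 peaks of chromosome Y.

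The share of reads off promoters was large in every library. In WT, 61.5, 84.3 and 78.5% of the reads outside the interval lay in off-promoter peaks. The shares were 80.1, 74.9 and 64.0% in Mutyh-/-, 78.6, 88.4 and 88.7% in Ogg1-/-, and 75.9, 93.4 and 80.2% in DKO. By reads, all 3 knockout groups overlapped WT. The mean was 74.8 ± 11.8% in WT (SD, n = 3), 73.0 ± 8.21% in Mutyh-/-, 85.2 ± 5.73% in Ogg1-/- and 83.2 ± 9.09% in DKO. The two-sided exact permutation test gave p = 0.80 for Mutyh-/-, p = 0.20 for Ogg1-/- and p = 0.50 for DKO (adjusted over the 3 contrasts, 0.80, 0.60 and 0.75), in a design of 3 against 3 whose smallest possible p is 0.10. The 9 knockout libraries together differed from WT by 5.71 percentage points (exact permutation p = 0.391), and an exact permutation of the F statistic over the 4 genotypes gave p = 0.301. Without WT replicate 1 the difference of all knockouts from WT turned to -0.91 percentage points. With peaks weighted equally on the log2 scale, the shares were 76.2, 81.4 and 77.9% in WT and 82.5, 82.6 and 83.6% in Ogg1-/-, which did not overlap (exact permutation p = 0.10, the smallest possible), while Mutyh-/- and DKO overlapped WT.

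**Figure D1:**
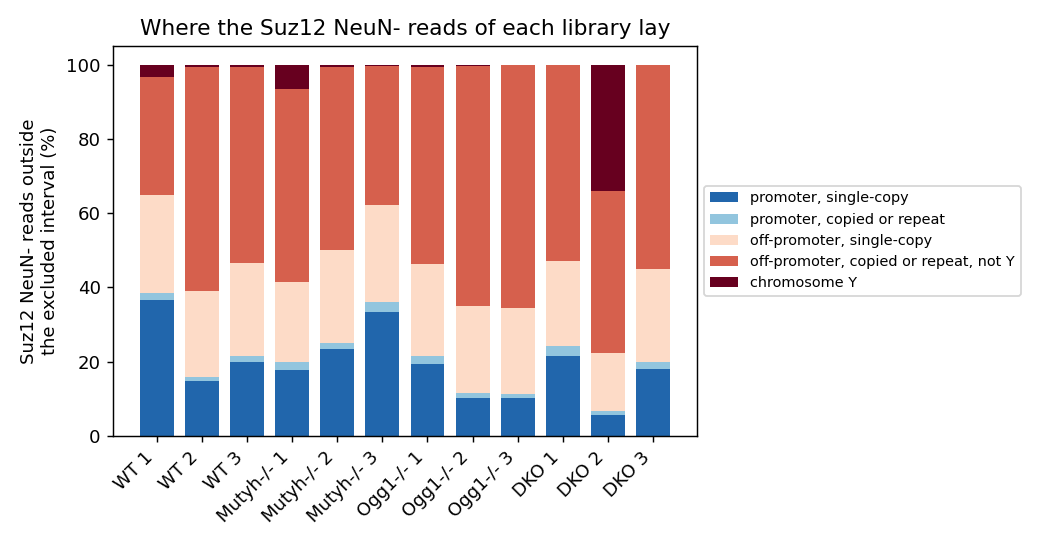
Percent of Suz12 NeuN- reads outside the excluded chromosome 2 interval (vertical axis) in each of the 12 libraries (horizontal axis), stacked by kind of peak. Off-promoter peaks held 61.5 to 93.4% of reads, and the dark block of chromosome Y reads was 33.9% in DKO replicate 2.

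Within the off-promoter reads, copied or repeat peaks weighed most. They held 35.3 to 77.8% of all reads outside the interval, and off-promoter peaks of single-copy DNA held 15.6 to 26.3%. Distal intergenic peaks held 28.0 to 58.5%, introns 17.3 to 32.4% and exons 6.89 to 15.9%. The 10 peaks with the most reads took 40.0 to 73.1%.

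The highest peak of all lay in an intron of 4933422A05Rik (chr9:35305256-35305656), in a sequence with 342 further copies in the genome. It had 709, 1651 and 601 reads in WT, 1854, 1042 and 313 in Mutyh-/-, 2247, 2716 and 1778 in Ogg1-/-, and 1391, 2470 and 1388 in DKO. It was followed by distal peaks near Rab10os and Pak3 and by an exonic peak of Gm5458 with 45 further copies. Among the 10 highest peaks by mean value, 2 were promoter peaks, both of Rn45s, the template of the 45S ribosomal RNA precursor. The chromosome Y peaks Gm20736 (3117 reads) and Gm20854 (2565 reads) entered this group through DKO replicate 2. Gm20736 had 198, 20 and 11 reads in WT, 470, 23 and 4 in Mutyh-/-, 27, 22 and 1 in Ogg1-/-, and 0, 3117 and 0 in DKO, so 1 of 3 DKO libraries carried it. With limma, neither of these 2 peaks was a differentially enriched region.

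Ung, which encodes uracil-DNA glycosylase, another enzyme of base excision repair, had 7 peaks between 114130363 and 114138504 of chromosome 5, and all 7 overlapped an exon, with 1 or more in each of its 7 merged exon blocks. Exons made up 61.2% of the bases of the gene, so most peaks placed anywhere in it would overlap one. None of the 7 peaks overlapped a peak of H3K27me3 NeuN-, H3K4me3 NeuN- or Suz12 NeuN+. Summed over them, reads were 1253, 461 and 271 in WT, 737, 982 and 648 in Mutyh-/-, 1237, 466 and 343 in Ogg1-/-, and 942, 340 and 591 in DKO. No Ung peak was a DER in any knockout (log2 fold changes of -0.57 to 0.59).

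Differential enrichment was tested with limma-trend on log2(value + 1), and only the cut-offs of the study's definition of a differentially enriched region (DER) were kept, since its p came from edgeR: a limma p below 0.05 before adjustment together with a log2 difference from WT of more than 0.5 either way. There were 12 DERs in Mutyh-/- (7 higher, 5 lower), 32 in Ogg1-/- (23 higher, 9 lower) and 20 in DKO (12 higher, 8 lower). Over all 312 peaks of the table, 3.85% of peaks were DERs in Mutyh-/- (2.24% higher, 1.6% lower), 11.2% in Ogg1-/- (8.33% higher, 2.88% lower) and 6.73% in DKO (4.17% higher, 2.56% lower). After Benjamini-Hochberg adjustment over the table limma called 0 peaks in each contrast (12, 35 and 21 peaks of the table had an unadjusted p under 0.05), and the smallest adjusted p of a peak outside the interval was 0.261, 0.145 and 0.355. All DERs are therefore nominal. The median log2 fold change of the 308 peaks was 0.16, 0.51 and 0.24, and the split of directions in Ogg1-/- followed the scaling: with TMM factors (median 0.22) 11 DERs were higher and 16 lower, and with total reads as library size (median 0.08) 10 were higher and 19 lower. In DKO these scalings gave 12 higher and 12 lower, and 7 higher and 14 lower.

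The 3 contrasts share the WT libraries, so calls at the same peak are not independent. The 64 calls fell on 53 peaks, of which 11 were promoter peaks and 42 were not, 32 were copied or repeat, and 27 lay in clusters. Of all 308 peaks, 81.8% were off promoters, 57.8% were copied or repeat and 58.8% lay in clusters. In 34 of the 64 calls no library of the contrast reached 20 reads at the peak. Knockout and WT libraries did not overlap in 44 of the 64 calls, that is 8 of 12 in Mutyh-/-, 24 of 32 in Ogg1-/- and 12 of 20 in DKO. Over the whole table, groups did not overlap with the knockout higher at 4.81, 14.4 and 7.69% of peaks and with the knockout lower at 1.92, 2.88 and 3.21%. Consensus peaks were those found in several replicates, so a peak at 0 in every library of a group could hardly enter through that group. Non-overlap and fold bounds at such peaks follow in part from this selection. Calls split by CpG content: 8 of the 16 peaks with a lower DER were CpG islands and 0 of the 37 peaks with a higher DER, against 36 of all 308 peaks. The median was 15 CpGs per peak with a lower DER and 3 with a higher one. Of the 9 lower calls at CpG islands, 7 were lost without WT replicate 1.

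**Figure D2:**
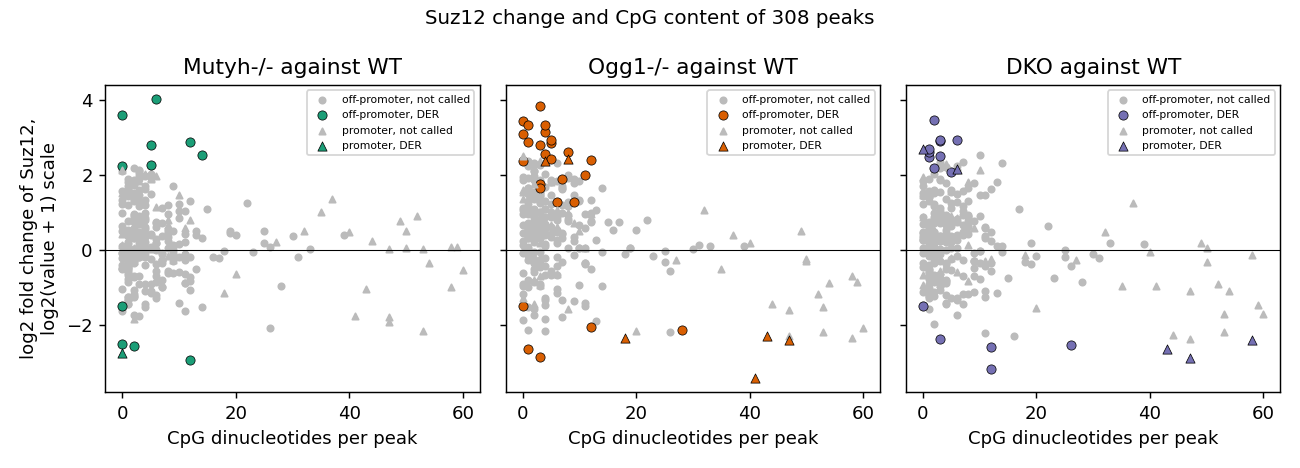
Log2 fold change of Suz12 on the log2(value + 1) scale (vertical axis) against the number of CpG dinucleotides in the peak (horizontal axis) for 308 peaks, 1 panel per knockout, with DERs in colour and promoter peaks as triangles. In Ogg1-/- and DKO the peaks with the most CpGs lie mostly below 0, and no higher DER has more than 14 CpGs.

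Promoters in single-copy CpG islands made up 4 of the 9 lower DERs of Ogg1-/- and 3 of the 8 of DKO. Mecom, which encodes a zinc finger transcription factor of the Prdm family, had 11, 21 and 3 reads in WT and 0, 0 and 0 in Ogg1-/- at its promoter peak (chr3:30508703-30509103, 384 bp from the start site). All WT libraries were above all Ogg1-/- libraries, and WT was at least 12.0-fold higher against a floor of 3 reads over the group. The limma log2 fold change was -3.43 (SE 1.29, adjusted p = 0.338), and the call was kept when any 1 of the 6 libraries was left out. The other knockouts had 1, 0 and 10 reads (Mutyh-/-) and 3, 5 and 6 reads (DKO) there, and were not called.

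Kmt2a encodes a histone H3 lysine 4 methyltransferase. Its promoter peak (chr9:44881264-44881664, at the start site) had 117, 14 and 12 reads in WT, 17, 7 and 21 in Mutyh-/-, 4, 6 and 5 in Ogg1-/-, and 3, 4 and 5 in DKO. Every Ogg1-/- and DKO library was below every WT library, and WT replicate 1 was far above the other 2. The limma log2 fold change was -2.30 in Ogg1-/- (SE 1.09, adjusted p = 0.412) and -2.65 in DKO (SE 1.09, adjusted p = 0.651). Neither was called without WT replicate 1, and the Ogg1-/- call was also lost without Ogg1-/- replicate 1 or 2.

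Tlx3, a homeobox gene of neuronal fate, had 30, 3 and 9 reads in WT and 3, 2 and 0 in Ogg1-/- (log2 fold change -2.42, SE 1.21). Mutyh-/- had 9, 13 and 11 and DKO 9, 0 and 15. Skor1, a transcriptional corepressor, had 30, 6 and 14 reads in WT and 0, 4 and 1 in DKO (-2.90, SE 1.26), and all DKO libraries were below all WT libraries. Tfap2e, an AP-2 transcription factor gene, had 43, 5 and 14 reads in WT and 2, 0 and 10 in DKO, where the groups overlapped (-2.40, SE 1.22). The calls at Tlx3, Skor1 and Tfap2e were lost without WT replicate 1 and also without WT replicate 3. A CpG island 6679 bp from the Foxa1 start site had 15, 5 and 10 reads in WT and 0, 0 and 5 in DKO (-2.55, SE 1.27), and one 29039 bp upstream of Apbb1ip, which encodes an adaptor of integrin signalling, had 2, 5 and 3 in WT and 0, 0 and 0 in Ogg1-/- (-2.14, SE 1.05). The last CpG island with a lower DER was a promoter of Hjurp, the chaperone of the centromeric histone CENP-A, with 17, 7 and 0 reads in WT and 0, 0 and 0 in Ogg1-/- (-2.36, SE 1.18). The calls at Hjurp, Apbb1ip and Foxa1 also depended on single libraries: Hjurp was lost without WT replicate 1 or 2 or any 1 Ogg1-/- library, Apbb1ip without WT replicate 2 or 3 or any 1 Ogg1-/- library, and Foxa1 without WT replicate 1 or 3 or DKO replicate 1 or 2.

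**Figure D3:**
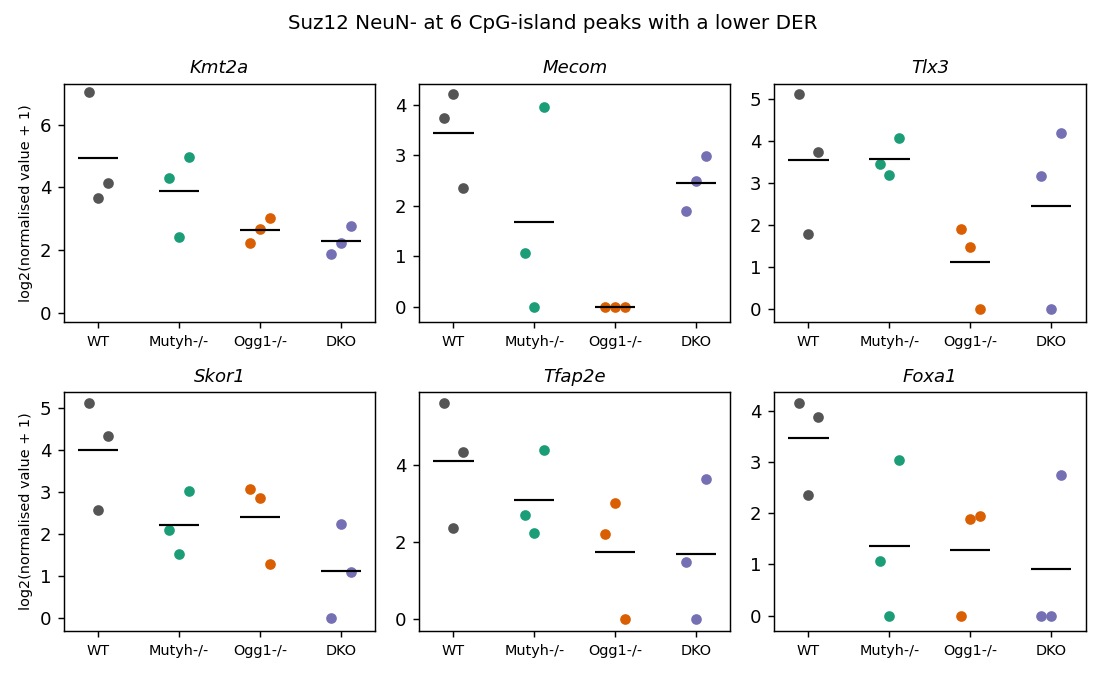
Suz12 NeuN- value per library (points) and group mean (line) on the log2(normalised value + 1) scale for 6 CpG-island peaks with a lower DER, by genotype. All 3 Ogg1-/- libraries are at 0 at Mecom, and WT replicate 1 is the highest point at Kmt2a, Tlx3, Skor1 and Tfap2e.

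Over all 23 single-copy CpG-island promoter peaks the log2 fold change was negative at 20 in Ogg1-/-, 20 in DKO and 10 in Mutyh-/-, with medians of -1.45, -1.09 and 0.02. Their summed normalised value was 3050, 824.1 and 985.1 in WT, 1781, 1027 and 1939 in Mutyh-/-, 2030, 867.9 and 894.4 in Ogg1-/-, and 1437, 613.7 and 1437 in DKO, so no knockout separated from WT over the 23. Single-copy here means that no further copy was found in GRCm38, and copies missing from that assembly were not looked for. The 2 Rn45s peaks held 1736, 373.1 and 560.5 of the WT sums. Of the 23 peaks, 5 belonged to Rn45s, Ung and Sfi1, and the other 18 were those of Hjurp, Tlx3, Neurod2, Gsc, Tmem267, Lbx1, Sp9, Nkx2-4, Mecom, Foxd3, Tfap2e, Hoxa11os, Ebf3, Irx3, Kmt2a, Skor1, Megf11 and Aldh1a2. The 18 were chosen after their values had been seen and were given no test. Their summed normalised value was 569.2, 120.2 and 182.7 in WT, 125.5, 115.9 and 274.5 in Mutyh-/-, 81.9, 63.6 and 44.4 in Ogg1-/-, and 59.3, 49.1 and 126.6 in DKO. All Ogg1-/- libraries were below all WT libraries, whereas DKO replicate 3 and Mutyh-/- replicates 1 and 3 lay within the WT range. The log2 fold change was negative at 17 of 18 peaks in Ogg1-/-, 17 of 18 in DKO and 10 of 18 in Mutyh-/-, with medians of -1.85, -1.52 and -0.44 beside 0.51, 0.24 and 0.16 over all 308 peaks. Of the 18, 4 were lower DERs in Ogg1-/- and 3 in DKO. Without WT replicate 1 the medians were -1.21 in Ogg1-/-, -0.79 in DKO and 0.40 in Mutyh-/-, and 1 peak in Ogg1-/- and 0 in DKO were called. With TMM factors 9 and 5 were called lower. The GC content of the peaks weighted by reads was also highest in WT replicate 1. It is computed from the reads in the same peaks, so it moves with these values by construction and cannot be told apart from them.

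**Figure D4:**
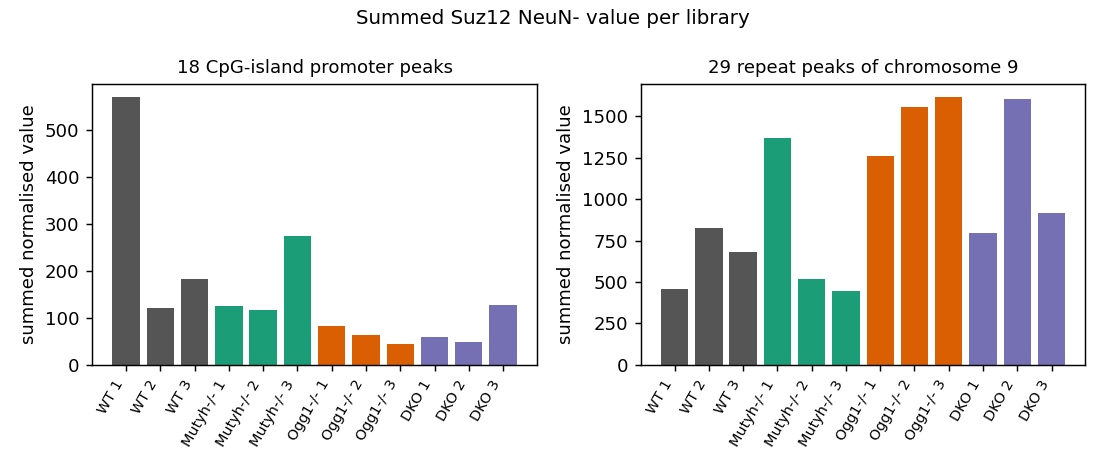
Summed normalised Suz12 NeuN- value (vertical axis) in each of the 12 libraries (horizontal axis, coloured by genotype) for 18 CpG-island promoter peaks (left) and for the 29 repeat peaks at the start of chromosome 9 (right). The Ogg1-/- libraries lie below all WT libraries on the left, for peaks chosen after their values had been seen, and above them on the right.

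By the gene lists, developmental transcription factors outside the Hox clusters had 9 peaks, at Ebf3, Foxa1, Foxd3, Irx3, Neurod2, Nkx2-4, Pitx1, Tfap2e and Tlx3. Of these, 1 was a lower DER in Ogg1-/- (Tlx3) and 2 in DKO (Tfap2e and Foxa1), 0 in Mutyh-/-, and none was higher. Of all 308 peaks, 2.92, 2.60 and 1.62% were lower DERs in Ogg1-/-, DKO and Mutyh-/-. All 9 log2 fold changes were negative in Ogg1-/- and in DKO, and 5 of 9 in Mutyh-/-, with medians of -1.51, -1.70 and -0.35. Of all 308 peaks, 100, 130 and 129 were negative. Ebf3, Foxd3, Irx3, Neurod2, Nkx2-4, Tfap2e and Tlx3 are also among the 18 promoters above, so these values are not a separate observation. Without WT replicate 1 these medians were -1.36, -1.64 and 0.47. Irx3, just outside the threshold in Mutyh-/-, had 27, 19 and 15 reads in WT, 5, 11 and 1 in Mutyh-/-, 9, 14 and 2 in Ogg1-/- and 1, 9 and 5 in DKO (log2 fold changes of -2.17, -1.51 and -2.19, SE 1.15). No Hox gene had a peak, although Hoxa11os, an antisense transcript of the Hoxa cluster, did. Signalling genes had 2 peaks (Epha7 and Plxnd1) and channels and receptors 1 (Kcnj6), none of them a DER. Of the PRC2 subunits, Jarid2 had an intronic peak, which was no DER either (log2 fold changes of 0.63 to 1.25). Genes named by the study had 0 peaks, and of the cell type markers Neurod2, a neuronal transcription factor, had the single peak.

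In Ogg1-/-, 21 of the 23 higher DERs were off promoters and 13 of the 23 were copied or repeat, beside 81.8% and 57.8% of all 308 peaks. The largest was 1 of 3 in the cluster of chromosome 16 assigned to the olfactory receptor gene Or1f19, whose start site is 332801 bp away: chr16:3259197-3259597 had 0, 0 and 0 reads in WT and 18, 22 and 5 in Ogg1-/-. Ogg1-/- was at least 14.6-fold higher against the floor of 3 reads over the group (limma log2 fold change 3.84, SE 1.27, adjusted p = 0.194). At 0 in WT, this peak could hardly have been listed except through the knockouts, so the bound depends on that selection. Mutyh-/- had 0, 11 and 7 reads there and DKO 0, 7 and 0. In this cluster 13 of 14 peaks had positive log2 fold changes in Ogg1-/-, with a median of 1.04. In DKO 13 of 14 were positive too (median 0.53), and 8 of 14 in Mutyh-/- (median 0.37). Of all 308 peaks, 207 were positive in Ogg1-/- (median 0.51).

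A peak annotated to an intron and assigned to Fbxw4, an F-box protein gene, had 2, 15 and 0 reads in WT and 37, 25 and 37 in Ogg1-/- (chr19:45649976-45650376, log2 fold change 3.33, SE 1.13). The groups did not overlap, and the call was kept without any 1 library. Mutyh-/- had 0, 0 and 20 reads there and DKO 24, 29 and 5, and neither was called. At a simple repeat of chromosome Y assigned to Gm20822 (194 further copies), WT had 0, 2 and 0 reads and Ogg1-/- 31, 19 and 3, a 25.8-fold ratio of normalised reads with a 95% counting interval of 6.80 to 219. The other genotypes had 0 or 1 read in each library there.

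Some of the highest peaks were among the higher DERs of Ogg1-/- as well. The peaks at 4933422A05Rik (log2 fold change 1.28, SE 0.61), Rab10os (1.27, SE 0.63) and Pak3 (1.66, SE 0.66) were higher in every Ogg1-/- library than in any WT library on the normalised scale. So were the 4 DERs of the chromosome 9 block. This block had summed normalised values of 458.3, 825.8 and 682.8 in WT and 1261.9, 1554.9 and 1617.0 in Ogg1-/-, beside 1368.8, 519.6 and 444.2 in Mutyh-/- and 799.0, 1604.2 and 914.7 in DKO. As a share of reads it overlapped: 4.97 to 12.3% in WT and 9.88 to 14.4% in Ogg1-/-. None of these 7 peaks was a DER with TMM factors. In the chromosome 1 cluster Ogg1-/- had 3 higher DERs (an intronic peak of Mroh2a and promoter peaks assigned to Mroh2a and Hjurp) beside the lower one at the Hjurp CpG island.

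**Figure D5:**
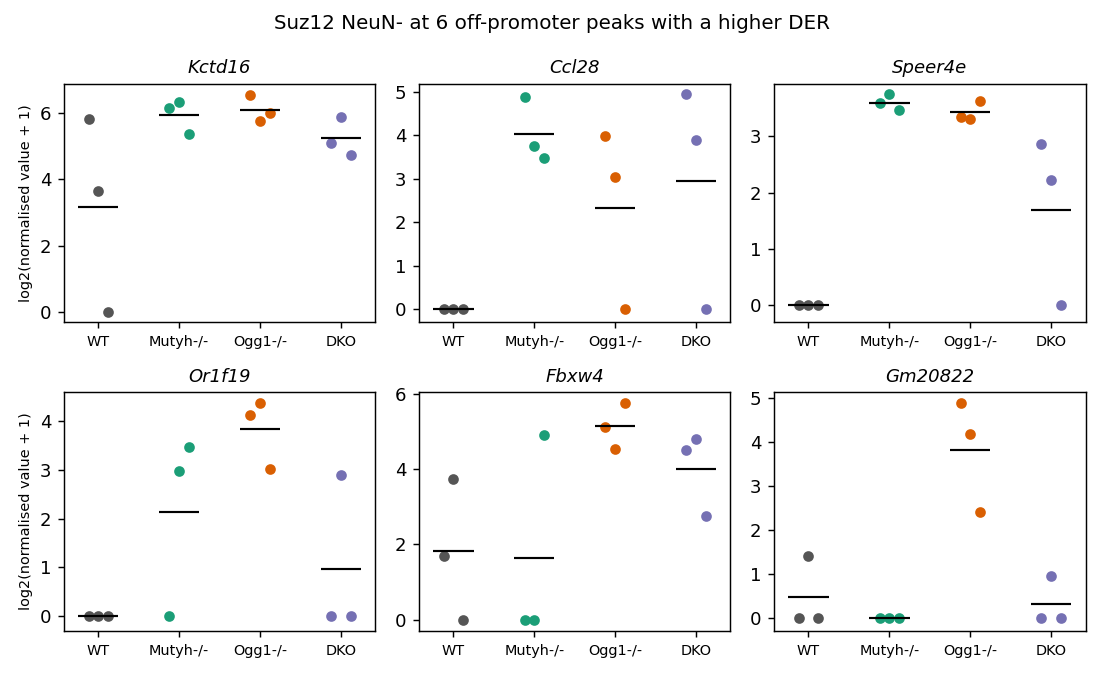
Suz12 NeuN- value per library (points) and group mean (line) on the log2(normalised value + 1) scale for 6 off-promoter peaks with a higher DER, by genotype. WT is at 0 in all 3 libraries at Ccl28, Speer4e and Or1f19.

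Mutyh-/- had the fewest calls, and 11 of its 12 DERs were off promoters, beside 81.8% of all 308 peaks. The smallest p was at a peak 7086 bp from Ccl28, a chemokine gene (chr13:119616333-119616733), with 0, 0 and 0 reads in WT and 26, 20 and 7 in Mutyh-/-. Mutyh-/- was at least 15.6-fold higher against the floor (log2 fold change 4.04, SE 1.28, limma adjusted p = 0.261), at a peak that could hardly have been listed through WT. DKO had 33, 15 and 0 reads there and was also called, and Ogg1-/- had 16, 8 and 0 and was not. The single promoter DER of Mutyh-/- was at 4931408C20Rik, where WT had 9, 16 and 10 reads and Mutyh-/- 6, 0 and 0 (-2.75, SE 1.24). That peak held 0 CpGs. The other higher DERs were near Kctd16, Speer4e, Mir101c, E030030I06Rik, Zfp936 and Prl2c2. The lower ones were near Tmem125, Gm21190 and, at 2 peaks, Zfp982.

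In DKO 5 of 20 DERs were promoter peaks, beside 18.2% of all 308 peaks. A peak 1319 bp from the Zfp982 start site (chr4:147508919-147509319), a gene of a zinc finger family in a duplicated part of chromosome 4, had the smallest p. It had 0 reads in every WT and Ogg1-/- library, 0, 0 and 1 in Mutyh-/-, and 15, 19 and 0 in DKO (limma log2 fold change 2.69, SE 0.87, adjusted p = 0.355). DKO replicate 3 overlapped WT at 0. The region of chromosome 4 with the Zfp clusters, counting also peaks outside clusters of 4 or more, held 52 peaks. In DKO 4 of them were higher and 3 lower DERs (7.69 and 5.77%, beside 3.90 and 2.60% of all 308 peaks), and some of these calls lay outside such clusters. The region had 0 higher and 2 lower DERs in Mutyh-/-, and 1 higher and 2 lower in Ogg1-/-. The other higher promoter DER was at Gnb5, a G protein beta subunit gene, with 0, 0 and 0 reads in WT and 8, 1 and 4 in DKO (2.16, SE 1.07). The call at Gnb5 was lost without any 1 of the 3 WT libraries and without DKO replicate 1 or 3. At a distal peak of the Or1f19 cluster (chr16:3242964-3243364), WT had 0, 0 and 1 reads and DKO 12, 13 and 17, a 38.8-fold ratio with a 95% counting interval of 6.59 to 1567 (limma log2 fold change 3.46, SE 1.29).

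Of the 53 peaks, 8 were DERs in 2 or 3 knockouts, and none of these had calls of opposite sign. Called in all 3 were Kctd16, Tmem125 and a distal Zfp982 peak. The intronic peak of Kctd16, which encodes an auxiliary subunit of GABA-B receptors (chr18:40308041-40308441), had 49, 14 and 0 reads in WT, 64, 127 and 28 in Mutyh-/-, 101, 59 and 44 in Ogg1-/-, and 37, 63 and 22 in DKO. The log2 fold changes were 2.80 (Mutyh-/-), 2.95 (Ogg1-/-) and 2.08 (DKO) (SE 0.89 each), with limma adjusted p = 0.261, 0.145 and 0.651. WT replicate 3 was at 0, all 3 calls were lost without it, and WT replicate 1 lay within the knockout range. Without WT replicate 1 the adjusted limma p was 0.0108 in Mutyh-/- and 0.00615 in Ogg1-/-. The peak 3985 bp from Tmem125 had 5, 9 and 9 reads in WT, 0, 1 and 0 in Mutyh-/-, 10, 0 and 0 in Ogg1-/-, and 0, 0 and 0 in DKO. Its log2 fold changes were -2.95, -2.06 and -3.18 (SE 1.04 each), and WT was at least 8.31-fold higher than DKO. The shared Zfp982 peak rested on 8 reads in all, 6 in WT replicate 2 and 2 in WT replicate 3. Called in 2 knockouts were Ccl28 (Mutyh-/- and DKO), the Speer4e peak and a Mir101c peak (Mutyh-/- and Ogg1-/-), and Kmt2a and a peak of 4933438K21Rik (Ogg1-/- and DKO).

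Other readouts at the same places came from separate libraries of the same genotypes. Of the 308 Suz12 peaks, 72 overlapped an H3K27me3 NeuN- peak, 112 an H3K4me3 NeuN- peak and 174 a Suz12 NeuN+ peak. Of the 23 single-copy CpG-island promoter peaks, 5 overlapped H3K27me3 NeuN-, 4 H3K4me3 NeuN- and 13 Suz12 NeuN+. H3K4me3 at the overlapping regions had 19, 31 and 17 DERs of 109 in Mutyh-/-, Ogg1-/- and DKO, beside 2.94, 3.36 and 2.29% of all H3K4me3 NeuN- peaks. H3K27me3 had 4, 7 and 5 DERs of 70, beside 2.00, 4.18 and 2.3% of its peaks. Suz12 in NeuN+ nuclei had 13, 17 and 8 DERs of 172, beside 5.16, 3.74 and 2.58% of its peaks. No Suz12 NeuN- DER was a DER of the same sign in NeuN+ nuclei in the same knockout. One had a call of the opposite sign: at Rab10os, higher in Ogg1-/- in NeuN- nuclei, the NeuN+ value was 154.2, 402.1 and 118.1 in WT and 0, 148.4 and 144.7 in Ogg1-/- (log2 fold change -2.81, limma adjusted p = 0.328), where the groups overlapped and 1 Ogg1-/- library was at 0.

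The clearest second readouts were those of H3K4me3 at Kctd16 and Fbxw4. The H3K4me3 value at Kctd16 was 31.8, 17.3 and 13.0 in WT, 79.0, 69.1 and 53.6 in Mutyh-/-, 71.3, 31.9 and 69.6 in Ogg1-/-, and 39.9, 52.2 and 35.7 in DKO, and every knockout library was above every WT library. The log2 fold changes were 1.73, 1.44 and 1.08 (limma adjusted p = 0.0289, adjusted p = 0.245 and adjusted p = 0.999). The H3K27me3 value at Kctd16 was called higher in Mutyh-/- (log2 fold change 2.29) and Ogg1-/- (2.14), but only before adjustment (limma adjusted p = 0.998 and 0.963). It was 54.3, 8.29 and 4.61 in WT, 99.9, 49.6 and 64.7 in Mutyh-/-, and 80.6, 49.0 and 59.6 in Ogg1-/-, so both overlapped WT. At Fbxw4, H3K4me3 was 0, 12.6 and 0 in WT, 36.2, 30.2 and 35.8 in Mutyh-/-, 8.91, 39.1 and 31.2 in Ogg1-/-, and 24.1, 26.5 and 31.3 in DKO, and 1 Ogg1-/- library lay within the WT range. It rose in all 3 knockouts after adjustment (log2 fold changes of 3.87, 3.29 and 3.56, limma adjusted p = 0.000514, 0.00763 and 0.00328). Suz12 at this peak was a DER in Ogg1-/- only, and 2 of the Mutyh-/- libraries had 0 Suz12 reads there. H3K27me3 at Fbxw4 was no DER in any knockout (log2 fold changes of -0.64 in Mutyh-/-, 0.42 in Ogg1-/- and 0.05 in DKO). At Tmem125, H3K27me3 was 18.5, 6.63 and 16.1 in WT and 0 in all 3 DKO libraries (log2 fold change -3.77, a lower DER). H3K4me3 was called lower there in Mutyh-/- (-2.71), and both calls held only before adjustment. H3K27me3 in Mutyh-/- and H3K4me3 in DKO were lower without being DERs. The lower Suz12 call of Ogg1-/- had no counterpart in either mark. H3K27me3 was 28.9, 8.99 and 21.5 in Ogg1-/- (log2 fold change 0.46), and H3K4me3 had a log2 fold change of 0.07. At Speer4e, H3K4me3 was 0 in all WT libraries and 18.8, 10.4 and 8.52 in Ogg1-/- (3.69, a higher DER).

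In NeuN+ nuclei, where peaks were called separately, 300 of 771 Suz12 peaks outside the same interval (38.9%) were off promoters. They held 30.8 to 69.2% of the signal of a library, beside 61.5 to 93.4% of the reads in NeuN-. At 1 repeat peak of the chromosome 9 block (chr9:3035857-3036257, assigned to Mir101c), a higher DER of Ogg1-/- in NeuN-, the overlapping NeuN+ peak had values of 25.5, 30.7 and 24.2 in WT and was listed at 0 in all 3 Mutyh-/- libraries (limma adjusted p = 0.0420). In NeuN- nuclei this peak had 12, 28 and 27 reads in WT and 66, 27 and 15 in Mutyh-/-, where it was no DER.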

How the data were processed

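ChIP-seq for Suz12 was analysed in 12 libraries of NeuN- hippocampal nuclei, 3 for each of 4 genotypes, grouped by the labels. Per the study's methods, the authors aligned reads to GRCm38 with Bowtie2 (2.3.5.1 in the submitters' processing notes), called peaks with epic2, kept those found in several replicates, counted reads with DiffBind 3.10.1 and annotated peaks with ChIPseeker 1.36. The treatment of duplicates, blacklisted regions and input is not given in the sources used here. The authors deposited a normalised signal for each peak, in which a read has 1 fixed weight per library. In every library 100% of values were whole multiples of 1 step (tolerance 0.01), so reads were recovered as value over step. Input libraries were not used here.

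The test was limma-trend (limma 3.58.1, R 4.3.3) on log2(value + 1) over 12 libraries and 312 peaks. The pseudocount understates changes of low peaks. The prior degrees of freedom were infinite, so a peak's own spread did not enter its p. Shares and read totals were compared by exact two-sided permutation tests. Copies were found with BLAST 2.17.0. Scripts were tested on simulated data. edgeR 4.0.16 and DESeq2 1.42.0 on recovered reads were alternatives, and with TMM factors edgeR called 15, 26 and 18 DERs. Intervals cover counting error only. Permutation p-values rest on the spread between pools of animals. The limma p-values of the fit over 312 peaks rest on a spread between pools shared by peaks of similar mean value, not on that of the peak itself.

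Named regions were promoter DERs, the 12 non-overlapping DERs with the smallest p, shared DERs and the highest peaks, with gene lists counted whole. Members and lists were chosen with earlier results of these data known. Total reads outside the interval averaged 6798 in WT, 8285 in Mutyh-/-, 11304 in Ogg1-/- and 11179 in DKO (exact permutation p = 0.40, 0.30 and 0.30). The count of neuron markers in the NeuN- fraction is not reported here.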

Additional observations from a re-analysis of the deposited data

Results flagged for a closer look

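At a distal peak assigned to Zfp982 (chr4:147403970-147404370), the log2 fold changes of DKO had opposite signs in the 2 fractions. Only the NeuN- change was a DER, and it was called before adjustment only. The difference between fractions was not tested. In NeuN- nuclei the peak had 0, 0 and 0 reads in WT and 4, 5 and 14 in DKO (log2 fold change 2.93). At 0 in WT, it could hardly have been listed except through the knockouts. The NeuN+ peak (chr4:147404270-147404670) overlapped it only in part. Its normalised values were 12.1, 10.9 and 6.71 in WT and 3.40, 4.17 and 0 in DKO (log2 fold change -1.91, no DER). The sequence of the NeuN- peak has 7 further copies in the genome.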

How the results depend on the processing

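The number of DERs was within 1.5 times the reported one in the other alternatives, and outside it with a mean of at least 5 reads (7, 18 and 9 DERs in Mutyh-/-, Ogg1-/- and DKO), without repeat peaks (7 in Mutyh-/- and 18 in Ogg1-/-) and, chosen after seeing the data, without clusters (5, 15 and 10), all of which test fewer peaks. Leaving out 1 library gave 8 to 16, 21 (without Ogg1-/- replicate 3) to 29 and 14 to 25. Adjusted calls, 0 as reported, were 2 in DKO with edgeR under both sets of factors, both on chromosome Y (Gm20736 and Gm20854), and 0 to 1 in each contrast without 1 library. At Gm20736 the adjusted calls had opposite signs: the log2 fold change in DKO was 3.43 and 3.51 with edgeR and -5.32 with limma without DKO replicate 2 (limma adjusted p = 0.00101). Same-numbered WT and knockout libraries did not deviate together (correlations of -0.061 to 0.046). With the replicate block, which pairs libraries by number only, DERs numbered 13, 39 and 28 and 1 adjusted call appeared in Ogg1-/- (Kctd16). The off-promoter share of Mutyh-/- against WT turned to 0.31 percentage points with peaks weighted equally on the log2 scale and ranged from -8.37 to 3.0 without 1 library, being above 0 without WT replicate 2 (3.0), WT replicate 3 (0.10) or Mutyh-/- replicate 3 (2.74). It ranged from 3.86 to 15.2 in Ogg1-/-, from 1.79 to 13.2 in DKO and from -0.91 to 10.5 for all knockouts. The log2 ratio of reads in peaks, 0.29, 0.73 and 0.72 in Mutyh-/-, Ogg1-/- and DKO, was -0.06 to 0.57 in Mutyh-/- (its lowest value being that without Mutyh-/- replicate 1 and its highest that without replicate 3), 0.47 (without WT replicate 3) to 0.93 in Ogg1-/- and 0.30 (without DKO replicate 2) to 0.91 in DKO when 1 library was left out. Without WT replicate 3 it was 0.02 in Mutyh-/- and 0.45 in DKO. Of the recomputed log2 fold changes of called peaks, none turned its sign. In the alternatives 639 kept the call and 173 lost it, and with 1 library left out 215 kept it and 169 lost it. With 2 to 11 reads per peak, differences at single peaks were near the limit of this depth. The cause of these shifts was not tested.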
